A study of Schizosaccharomyces pombe with 4 samples.

Results

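The genes described here are 7 genes of fission yeast that carry glucose into the pentose phosphate pathway, taken by their gene identifiers from the 7092 genes in the files. They are *gcd1* (SPCC794.01c), the gluconokinase gene *idn1* (SPAC4G9.12), the glucose-6-phosphate dehydrogenase genes *zwf1* (SPAC3A12.18) and SPAC3C7.13c, the 6-phosphogluconate dehydrogenase gene *gnd1* (SPBC660.16), the transaldolase gene *tal1* (SPCC1020.06c) and the transketolase gene SPBC2G5.05, called *tkt1* here. RNA of *Schizosaccharomyces pombe* was sequenced in 2 libraries labelled as a *loz1* deletion and 2 labelled wild type, to ask which transcripts change without Loz1, a zinc finger repressor that is active in zinc-replete cells. Per the labels, cells of both genotypes were cultured to an OD600 of about 6.0 in minimal medium low in zinc to which zinc had been added, at a stated 100 mM. Apart from *loz1* no genotype is given. The labels do not say whether the pair of libraries in a group comes from separate cultures, and p-values therefore describe just how far these samples spread, which may be technical spread.

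Glucose reaches the pentose phosphate pathway by a pair of routes in this yeast. In the common oxidative route glucose is first phosphorylated, and glucose-6-phosphate dehydrogenase and a lactonase turn it into 6-phosphogluconate. In the gluconate shunt glucose is oxidised first, to gluconate, by the NADP-dependent glucose dehydrogenase Gcd1, and gluconokinase then phosphorylates the gluconate. Both routes meet at 6-phosphogluconate, which Gnd1 oxidises to ribulose 5-phosphate, and both yield NADPH, the reducing power for biosynthesis and for defence against oxidants. Transketolase and transaldolase then exchange carbon units between sugar phosphates without any oxidation.

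Levels are FPKM, which divide the fragments of a transcript by its length and by the total sequenced, as the authors deposited them, so levels of different genes are compared per length. The depth estimated from Cufflinks' bounds was 1.57e+07 to 1.79e+07 fragments per library, and those bounds cover counting error only. Across tested genes, which are not independent replicates, Pearson's r was 0.991 within the deletion-labelled pair and 0.968 within the wild-type pair. The median absolute difference within a pair was 0.09 (log2) in the labelled deletion and 0.24 in wild type. The *loz1* transcript went against its label, with 56.4 and 56.0 FPKM in the pair labelled as its deletion and 6.87 and 5.81 FPKM in the wild-type pair, and the files do not separate reads inside and outside a deleted part. All directions are therefore those of the libraries as labelled. The median change of all tested genes was 0.13 (log2) in the main fit, which used all 4 libraries without rescaling. Every change from that fit includes it, while changes after rescaling or with a library left out have medians of their own.

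Of the 7 genes, *gcd1* and *gnd1* rose in the deletion-labelled libraries, and the other 5 did not pass the test in either direction. *gcd1* went from the lowest of the 7 in wild type to a level near that of transketolase, a ratio of group means of 84.7, and *gnd1* stood 4.11 times as high. All 7 passed the filter on low values. Over the whole table, limma called 11.9% of 6315 tested genes higher and 4.37% lower at an adjusted p under 0.05, with n = 2 per group. All changes are differences of log2(FPKM + 1), which understates the change of low genes. The median change was 0.63 for the 7 genes and 0.13 for all tested genes.

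**Figure D1:**
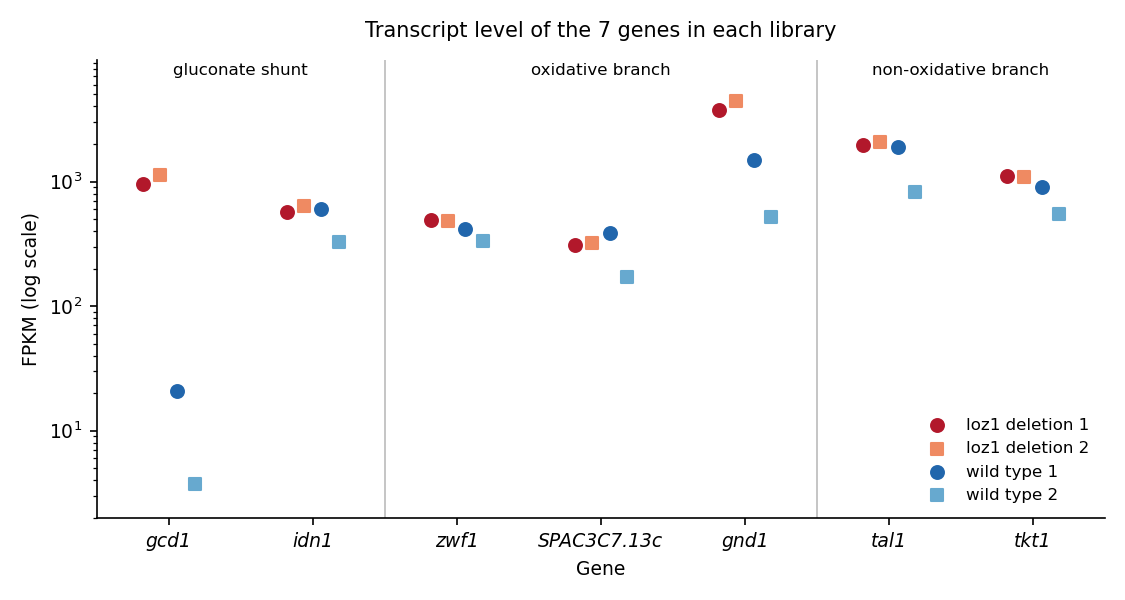
FPKM of the 7 genes in each of the 4 libraries, on a log axis, with 1 point per library. The *gcd1* points of the labelled deletion lie at 951 and 1122 FPKM and those of wild type at 20.7 and 3.76 FPKM, while the groups of *idn1* and SPAC3C7.13c overlap.

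The shunt begins with *gcd1*. RefSeq names its product as a glucose-6-phosphate 1-dehydrogenase. The gene lies on chromosome III from 239463 to 241999, minus strand, in the files, with 2 exons and a transcript of 2259 nt. It was listed at 951 and 1122 FPKM in the deletion-labelled libraries and at 20.7 and 3.76 FPKM in the wild-type pair. Both deletion-labelled libraries were far above both wild-type libraries, and the lower of the first pair was 45.9 times the higher of the second. The mean of 1036 ± 121 FPKM (SD, n = 2) was 84.7 times that of wild type, and the test gave a rise of 6.67 ± 0.70 (log2, SE) with a 95% interval from 4.86 to 8.48 and an adjusted p of 0.00784 (limma). Among 4999 tested protein-coding genes, *gcd1* moved from percentiles 27.3 and 4.0 in the wild-type libraries to 95.9 and 96.3 in the deletion-labelled libraries. Of those 4999 genes, 7 had a larger rise, whether called or not.

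The wild-type libraries gave 2 different low levels of *gcd1*. Cufflinks' bounds were 19.0 to 22.5 FPKM in wild type 1 and 3.08 to 4.43 FPKM in wild type 2, so the pair differed by more than counting error, 5.52-fold. Against wild type 1 alone the change was 5.57 (adjusted p = 7.38e-05, limma), and against wild type 2 alone it was 7.76 (adjusted p = 2.93e-05). In those fits the single wild-type library is assumed to vary like the deletion-labelled pair. *gcd1* was called in all 13 alternative settings, with an adjusted p of at most 0.0476.

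The sequence before these genes was read in the ASM294v3 reference, whose RefSeq annotation holds all 7 genes and every intron that the files give them. Loz1 is known to bind an element with a GATC core, and its loose form (CG, any 2 bases, GATC, any base, T) was searched on both strands from 1000 nt before to 50 nt after each RefSeq transcript start. None of the 7 windows held it, while 4.92% of 5144 protein-coding genes did. The bare core GATC, which reads the same on both strands and is part of the longer motif, occurred 1 to 4 times in each of the 7 windows, 3 times for *gcd1* and 1 time for *gnd1*. Of all windows 88.7% held at least 1, with a median of 2, and 41.1% held at least 3. The sites of both called genes are shown, with the core in capitals, on the strand of the gene, and beside them, with the whole motif in capitals, the match before the zinc importer gene *zrt1*, a known Loz1 target.
gcd1, position -935 from the start (III:242692-242711): aaagaatgGATCtagtagga
gcd1, position -612 (III:242369-242388): ttttccgaGATCccccgctt
gcd1, position -530 (III:242287-242306): tgatggatGATCgaatgttt
gnd1, position -96 (II:230218-230237): ctaaaatcGATCtattctcg
zrt1, position -194 (II:3606978-3606997): tcaagCGTCGATCCTtaaac
Positions are those of the first base of the core, or of the whole match for *zrt1*. A match of letters is not a bound site, and its absence says only that these letters are not in these windows. The *gcd1* transcript of the files starts 231 nt before that of RefSeq, and the bases before it lie within the transcript of *wtf5*, a gene on the opposite strand. Its 5′ untranslated span in RefSeq, with any intron, is 560 nt, against 46 nt to 329 nt in the other 6 genes.

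Gluconokinase, the next enzyme of the shunt, is encoded by *idn1* (I, 2276859 to 2278109, plus strand, 2 exons, 1200 nt). It was listed at 569.6 and 631 FPKM in the deletion-labelled libraries and at 606 and 327 FPKM in the wild-type pair. Wild type 1 lay between the deletion-labelled libraries and wild type 2 lay well below them, so the groups overlapped. The change of 0.43 ± 0.30 did not pass the test (95% interval -0.35 to 1.20, adjusted p = 0.359, limma). On the opposite strand *vps26*, which encodes a retromer subunit, covers 97.4% of the *idn1* span, at 56.7 and 53.0 FPKM against 52.4 and 42.4 FPKM. The strand setting of the counting is not given in the sources used here, so reads of such overlapping partners cannot be told apart.

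In wild type gluconokinase RNA was abundant while *gcd1* RNA was scarce. The ratio of *gcd1* to *idn1* FPKM was 0.0342 and 0.0115 in wild type 1 and 2. It was 1.67 and 1.78 in the deletion-labelled libraries, where *gcd1* exceeded *idn1*. Such a ratio within a library does not depend on the scaling between libraries. These ratios are given as values per library and were not tested.

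The oxidative route starts with glucose-6-phosphate dehydrogenase, and *zwf1* (I, 1454782 to 1456870, plus strand, 2 exons, 1973 nt) encodes it. It was listed at 489.9 and 482 FPKM in the deletion-labelled libraries and at 414 and 336 FPKM in the wild-type pair. Both deletion-labelled libraries were above both wild-type libraries, the lowest of them at 1.16 times the highest wild-type value. A lack of overlap in this direction held for 44.7% of all tested genes, and for 5 of the 7 genes here, and in the lower direction for 21.6% and for none of the 7. The change of 0.38 ± 0.13 had a 95% interval from 0.04 to 0.73 and did not pass after adjustment (adjusted p = 0.115, limma).

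SPAC3C7.13c (I, 2089555 to 2093285, minus strand, 1 exon, 3731 nt) is annotated with the same enzyme activity. It was listed at 307 and 319 FPKM in the deletion-labelled libraries and at 387 and 170.4 FPKM in the wild-type pair. The deletion-labelled libraries lay between the wild-type libraries, of which the first was the highest of the 4. The change was 0.28 ± 0.38 (95% interval -0.71 to 1.27, adjusted p = 0.630, limma), and against wild type 1 alone it was -0.31 (adjusted p = 0.0230), the reverse direction.

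RefSeq gives *gcd1*, *zwf1* and SPAC3C7.13c the same product name, and the make-up of this family differed between the groups. *gcd1* gave 54.4% and 58.4% of the summed FPKM of the family in the deletion-labelled libraries, and 2.52% and 0.736% in wild type. The share of *zwf1* was 28.0% and 25.1% against 50.4% and 65.9%. SPAC3C7.13c gave 17.6% and 16.6% against 47.1% and 33.4%. Thus *gcd1* was the smallest part of the family in both wild-type libraries and the largest in both deletion-labelled libraries. The summed level was 1747 and 1923 FPKM against 822 and 510.2 FPKM. The difference in the mean share of *gcd1* was 54.7 percentage points, and 52.8 to 56.7 with any 1 library left out. None of the 7 RefSeq transcripts held a stretch of 100 nt that occurs elsewhere in the reference genome, so those of these 3 genes share no such stretch. The bases of the files' transcripts before the RefSeq starts, 231 nt for *gcd1*, were not searched.

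**Figure D2:**
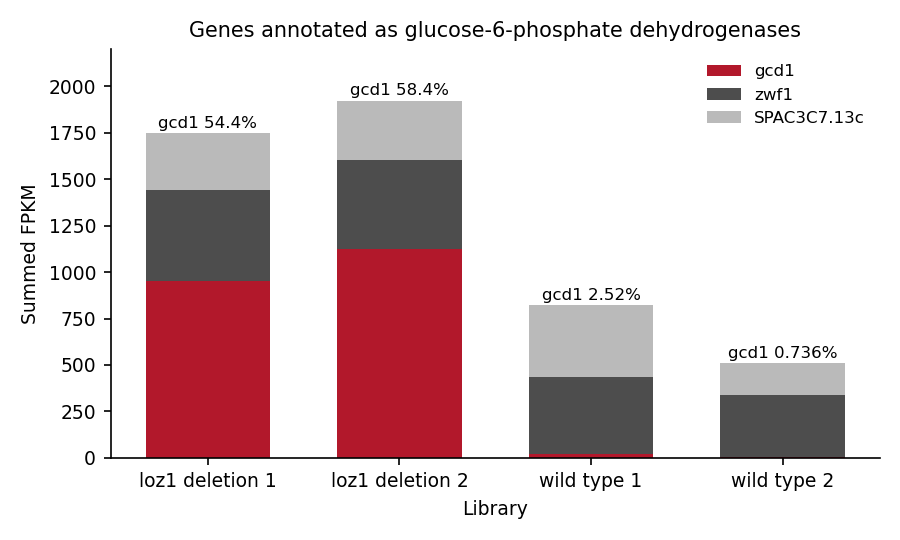
Summed FPKM of *gcd1*, *zwf1* and SPAC3C7.13c as stacked bars for the 4 libraries, with the share of *gcd1* in percent above each bar. *gcd1* fills 54.4% and 58.4% of the labelled deletion bars and 2.52% and 0.736% of the wild-type bars.

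Both routes end at the substrate of *gnd1* (II, 230269 to 233218, plus strand, 5 exons, 1735 nt). It was listed at 3764 and 4452 FPKM in the deletion-labelled libraries and at 1482 and 517 FPKM in the wild-type pair. Both deletion-labelled libraries were above both wild-type libraries, by at least 2.54 times. The mean was 4108 ± 486 FPKM against 999 ± 682 FPKM (SD, n = 2 each). The rise was 2.22 ± 0.51, with a 95% interval from 0.92 to 3.52 and an adjusted p of 0.0463 (limma), close to the threshold. With labelled deletion 1 or 2 left out, the change was 2.34 or 2.10. The call of *gnd1* was then lost, as were most calls over the whole table. After median-ratio rescaling of the libraries the adjusted p was 0.0631 (limma), with a change of 2.09. The rescaled table had 6.71% of tested genes called higher and 4.91% lower. *gnd1* was called in 8 of 13 alternatives.

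The bases just before the *gnd1* transcript of the files are shown because *gnd1* rose and no neighbouring transcript covers them. They lie at II:230072-230268, plus strand, and hold 1 core, in capitals, and 43.1% G and C.
gnd1 upstream: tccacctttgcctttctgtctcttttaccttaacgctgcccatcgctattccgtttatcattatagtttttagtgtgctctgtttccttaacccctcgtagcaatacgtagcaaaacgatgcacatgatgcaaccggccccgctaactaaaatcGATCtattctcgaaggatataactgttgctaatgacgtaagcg

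With this rise *gnd1* became the most abundant of the 7 transcripts. It held percentiles 99.6 and 99.7 of the tested protein-coding genes in the deletion-labelled libraries, and 96.9 and 93.6 in wild type. It gave 41.1% and 43.8% of the summed FPKM of the 7 genes in the deletion-labelled libraries and 26.0% and 18.9% in wild type. Its ratio to *zwf1*, which acts earlier on the oxidative route, was 7.68 and 9.23 against 3.58 and 1.54.

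The non-oxidative enzymes were high in all 4 libraries. Transaldolase *tal1* (III, 773329 to 774834, plus strand, 2 exons, 1429 nt) was listed at 1981 and 2063 FPKM in the deletion-labelled libraries and at 1877 and 824 FPKM in the wild-type pair. The deletion-labelled libraries were higher, the lowest of them at 1.06 times the highest wild-type value, while wild type 2 stood apart below. The change of 0.70 ± 0.40 did not pass the test (95% interval -0.32 to 1.72, adjusted p = 0.268, limma).

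Transketolase *tkt1* (II, 2586372 to 2588834, plus strand, 1 exon, 2463 nt) was listed at 1104 and 1089.8 FPKM in the deletion-labelled libraries and at 910.0 and 553 FPKM in the wild-type pair. The groups did not overlap, and wild type 2 was again the lowest. Its change was 0.63 ± 0.25 (95% interval -0.02 to 1.28, adjusted p = 0.147, limma). The ratio of *tal1* to *tkt1* was 1.79 and 1.89 in the deletion-labelled libraries and 2.06 and 1.49 in wild type, so the groups overlapped in it. The ratio of *tkt1* to *zwf1*, at 2.25 and 2.26 against 2.20 and 1.64, spanned less than the ratio of *gnd1* to *zwf1*.

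**Figure D3:**
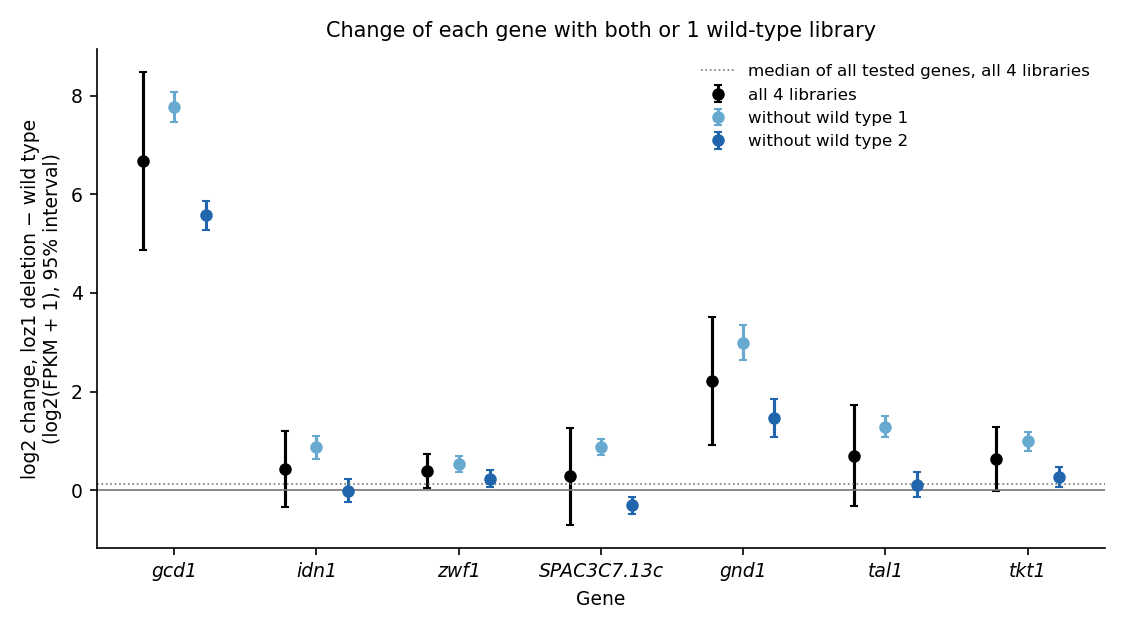
Change of each of the 7 genes between the labelled deletion and wild type, in log2(FPKM + 1), with 95% intervals from limma, for all 4 libraries (black) and with wild type 1 or wild type 2 left out (light and dark blue). With all libraries the intervals of *gcd1* (4.86 to 8.48), *gnd1* (0.92 to 3.52) and *zwf1* (0.04 to 0.73) lie above 0, and *gcd1* and *gnd1* pass after adjustment over all tested genes.

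The order of levels within a library changed mainly through *gcd1* and *gnd1*. In wild type 1 the order from high to low was *tal1*, *gnd1*, *tkt1*, *idn1*, *zwf1*, SPAC3C7.13c and *gcd1*. In wild type 2 *tkt1* passed *gnd1* and *zwf1* passed *idn1*. In labelled deletion 1 it was *gnd1*, *tal1*, *tkt1*, *gcd1*, *idn1*, *zwf1* and SPAC3C7.13c, and in labelled deletion 2 *gcd1* passed *tkt1*. In wild type the ranges of neighbouring genes overlapped, from 824 to 1877 FPKM for *tal1* and 517 to 1482 FPKM for *gnd1*, for example, and only *gcd1* lay apart below all others. In the labelled deletion the ranges of *gcd1* and *tkt1* overlapped, and the other neighbours were separate.

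All 7 genes were higher in wild type 1 than in wild type 2, as were 56.3% of all tested genes. The difference, wild type 1 minus wild type 2, was 2.19 for *gcd1*, 1.52 for *gnd1*, 1.19 for *tal1*, 1.18 for SPAC3C7.13c, 0.89 for *idn1*, 0.72 for *tkt1* and 0.30 for *zwf1* (log2). Its median was 1.18 for the 7 genes and 0.05 for all tested genes, of which 0.412% had a difference at least as large as *gcd1* and 0.871% at least as large as *gnd1*. Between the deletion-labelled libraries the difference ran from -0.24 to 0.02 in the 7 genes, with a median of -0.06 beside 0.04 for all tested genes. In each of the 7 genes the wild-type pair differed more than the deletion-labelled pair. Over all tested genes the wild-type pair also differed more, at a median absolute difference of 0.24 against 0.09 (log2). The share of tested genes for which this holds was not counted. Whether that spread is technical was not tested. Against wild type 2 alone all 7 genes were called higher, where 33.5% of tested genes were and 13.9% were called lower. Against wild type 1 alone *gcd1*, *gnd1*, *zwf1* and *tkt1* were called higher, where 25.2% of tested genes were, SPAC3C7.13c was called lower, where 12.6% were, and *idn1* was at -0.02 (adjusted p = 0.893, limma).

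**Figure D4:**
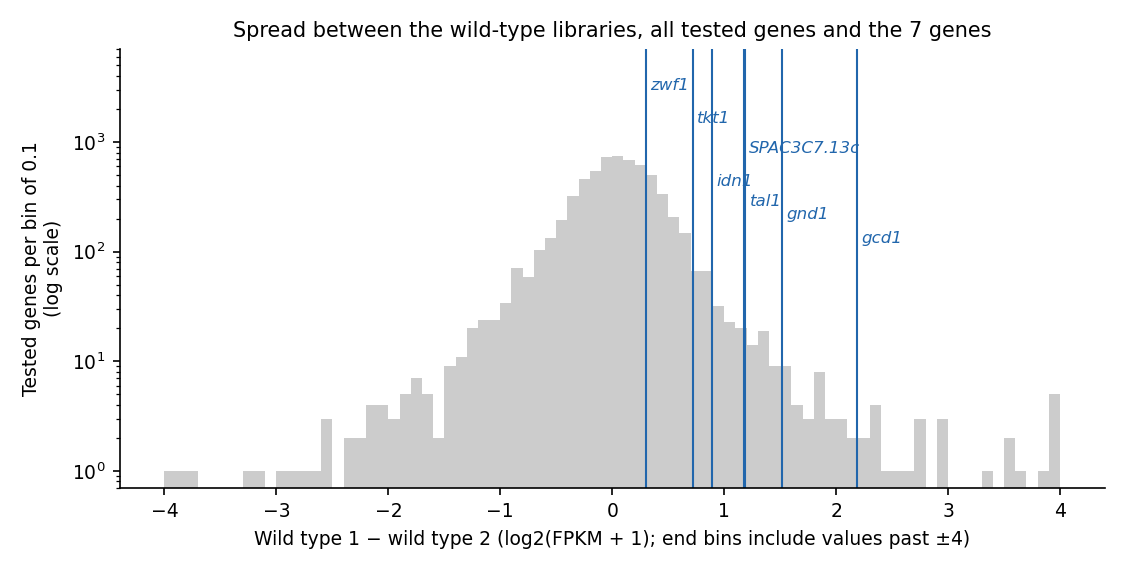
Difference between the wild-type libraries, replicate 1 minus replicate 2 in log2(FPKM + 1), as a histogram of the 6315 tested genes on a log axis, with the 7 genes as vertical lines. All 7 lines lie to the right of 0, from 0.30 for *zwf1* to 2.19 for *gcd1*; the bins at either end also hold values beyond 4.

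Other enzymes that make or use pentose and ribose phosphates were not called. None of the 8 tested genes of that list passed in either direction, beside 11.9% of all tested genes called higher and 4.37% lower. The median change was 0.13 for the list and 0.13 for all tested genes. The ribose-phosphate pyrophosphokinase gene *prs5* had the smallest p, at 128 and 115 FPKM against 94.7 and 85.3 FPKM (adjusted p = 0.0591, limma). Ribose 5-phosphate isomerase *rki1*, at 155 and 153 FPKM against 127 and 92.8 FPKM, came next (adjusted p = 0.105). The lactonase gene *pgl1*, whose enzyme follows glucose-6-phosphate dehydrogenase, stood at 208 and 209 FPKM against 207 and 196 FPKM, a change of 0.05 (95% interval -0.18 to 0.28). It was picked outside the naming rule, for its place in the route.

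Of 8 genes for glucose and gluconate entry and branch points, 2 rose and none fell, beside 11.9% and 4.37% of all tested genes. Both encode hexokinases, which phosphorylate glucose. *hxk2* went from 157 and 131 FPKM in wild type to 324 and 344 FPKM, a rise of 1.21 ± 0.12 (adjusted p = 0.00662, limma). *hxk1* went from 146 and 109.7 FPKM to 253 and 253 FPKM, a rise of 0.99 ± 0.16 (adjusted p = 0.0212, limma). Without a filter on low values *hxk1* lost its call (adjusted p = 0.0551, limma) and *hxk2* kept it (0.0293). In both hexokinase genes the deletion-labelled libraries were above both wild-type libraries. The median change of the list was 0.21, beside 0.13 for all tested genes. The gluconate symporter gene *ght3*, outside the naming rule and picked for its substrate, was at 162 and 173 FPKM against 585 and 159.7 FPKM. The deletion-labelled values lay between those of wild type 2 and wild type 1, and the change of -0.87 ± 0.60 did not pass (adjusted p = 0.350). The gene *gti1*, annotated as an inducer of gluconate transport and likewise picked outside the rule, rose from 7.38 and 4.38 FPKM to 17.5 and 19.1 FPKM, by 1.52 ± 0.25 (adjusted p = 0.0239). The call of *gti1* was lost without a filter on low values (adjusted p = 0.0623, limma). It was also lost with a deletion-labelled library left out, as were most calls over the whole table.

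A list of 16 other genes was drawn up by enzyme name as likely makers or users of NADP(H). Of these 6 rose and none fell, beside 11.9% and 4.37% of all tested genes. The median change was 0.37, beside 0.13. SPAC5H10.10, annotated as an NADPH dehydrogenase, went from 9.18 ± 1.37 FPKM to 109 ± 12.3 FPKM (SD, n = 2 each), a rise of 3.44 ± 0.15 (adjusted p = 0.00110, limma). The malic enzyme gene *mae2* went from 1007 and 901 FPKM to 2189.8 and 2369 FPKM, a rise of 1.26 ± 0.14 (adjusted p = 0.00935, limma). Its product name gives no cofactor, so the annotation does not show that *mae2* belongs on this list. Smaller rises passed for *ccr1*, the NADPH-cytochrome P450 reductase gene (0.74), the NADH kinase gene *pos5* (0.62), *gdh1*, the NADP-specific glutamate dehydrogenase gene (0.53), and the glutathione reductase gene *pgr1* (0.49). Of the 4 genes that act on or beyond erythrose 4-phosphate toward aromatic amino acids, chorismate synthase *aro2* rose from 129 and 143 FPKM to 216 and 226 FPKM, by 0.70 ± 0.10 (adjusted p = 0.0168). The other 3 were not called, and the median change of the 4 was 0.29. In all, 9 of 36 genes on these 4 lists rose and none fell, where 11.9% of all tested genes were called higher and 4.37% lower. The lists were chosen with earlier results of these data known, so these counts are not independent of the data. With a deletion-labelled library left out, most of these genes lost their call, as did most called genes of the whole table. After median-ratio rescaling SPAC5H10.10, *ccr1*, *hxk1*, *hxk2* and *mae2* were called higher. In that setting 6.71% of all tested genes were called higher and 4.91% lower.

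Both transcripts next to *gcd1* rose as well. The transporter gene SPCC1529.01 ends 81 nt from the 3′ end of *gcd1* on the opposite strand. It was listed at 103 and 125 FPKM in the deletion-labelled libraries against 13.6 and 5.31 FPKM in the wild-type pair, and rose by 3.58 ± 0.41 (adjusted p = 0.00963, limma). *wtf5*, annotated as a meiotic drive suppressor of the antidote type, overlaps the 5′ part of *gcd1* on the opposite strand over 528 nt, 20.8% of the *gcd1* span. It rose from 3.69 ± 1.87 FPKM to 19.8 ± 0.509 FPKM (SD, n = 2 each), by 2.20 ± 0.31 (adjusted p = 0.0160). In both, wild type 1 was above wild type 2, as in *gcd1*. Neither kept its call with a deletion-labelled library left out, where most called genes of the whole table lost theirs. The next gene beyond *wtf5*, the thiamine transporter gene SPCC794.03, was at 91.7 and 82.1 FPKM against 66.6 and 79.7 FPKM and was not called (adjusted p = 0.233). Whether reads of *gcd1* add to those of *wtf5* was not tested.

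**Figure D5:**
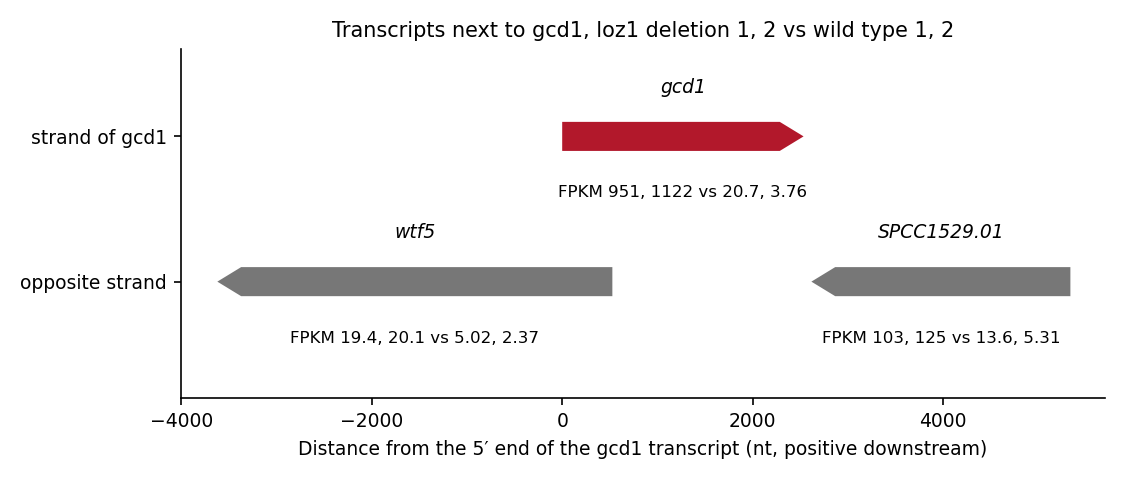
Transcripts beside *gcd1* as arrows in the direction of transcription, by distance in nt from the 5′ end of *gcd1*, on the 2 strands, with FPKM of labelled deletion 1 and 2 against wild type 1 and 2. *wtf5* runs away from *gcd1* on the opposite strand and overlaps its 5′ part, and SPCC1529.01 runs toward its 3′ end; both were higher in the deletion-labelled libraries.

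*gnd1* overlaps no other transcript in the files. SPBC660.17c, 48 nt from its 3′ end on the opposite strand, fell from 93.7 and 114 FPKM to 70.3 and 66.8 FPKM, by 0.59 ± 0.13 on the log2 scale (adjusted p = 0.0426, limma). *msi2*, which lies 1579 nt before *gnd1* on the same strand, rose by 0.87 ± 0.15 (adjusted p = 0.0261). Both lost their call with a deletion-labelled library left out, and so did most called genes of the whole table. Over the 14 nearest non-overlapping genes on both sides of the 7 genes, 6 were called higher and 1 lower, beside 11.9% and 4.37% of all tested genes. Some of the 6 lost their call after median-ratio rescaling, and most did without a filter on mean FPKM. Over the whole table the genes called higher went from 753 to 424 and 491 in those settings.

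The genes whose values over the 4 libraries were most like those of *gcd1* were found by the Euclidean distance between values of log2(FPKM + 1) centred on each gene's own mean, over 4798 protein-coding genes that averaged 5 FPKM or more. SPAC977.17, which encodes a protein of the aquaporin-like MIP family, was nearest, at a distance of 1.32, with 501 and 535 FPKM against 3.38 and 2.23 FPKM. SPAC22H10.06c followed at 1.41, with 307 and 334 FPKM against 6.81 and 3.75 FPKM, and then SPAC4H3.17 at 1.75. The alcohol dehydrogenase gene *adh4*, at 1.91, had 3319.9 and 3602 FPKM against 23.3 and 32.8 FPKM, and SPAPJ695.02 was at 2.11. SPAC4H3.17 had 51.8 and 62.3 FPKM against 8.46e-06 and 9.23e-06 FPKM, and SPAPJ695.02 had 48.7 and 58.3 FPKM against 0.166 and 0.357 FPKM. In wild type SPAC977.17, SPAC4H3.17 and SPAPJ695.02 averaged under 5 FPKM, so they entered only through the deletion-labelled libraries. That each was high in the labelled deletion and low in wild type follows from the choice by these same values. *adh4* had its lower wild-type value in wild type 1, and *gcd1* in wild type 2. Of the other 6 genes *gnd1* came first, at rank 52 and a distance of 4.47, followed by *tal1* at rank 282 and *tkt1* at rank 380. *idn1*, SPAC3C7.13c and *zwf1* had ranks 691, 1070 and 1084.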

How the data were processed

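RNA of 4 libraries, 2 per group, was analysed. The deposited files list Cufflinks FPKM with bounds for 7093 transcripts of 7092 genes, per the file headers. Per the submitters' processing notes the authors used HISAT2, SAMtools, Cufflinks and Cuffdiff on ASM294v2. Versions and the strand setting were not given in the sources used here. FPKM values are no counts, so no count test was used. Depth was estimated from Cufflinks' bounds.

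The 6315 genes averaging 1 FPKM or more, with transcripts of 200 nt or longer, entered limma 3.58.1 (R 4.3.3, trended prior, Benjamini-Hochberg adjustment over all of them) as log2(FPKM + 1). RefSeq (ASM294v3) gave names for 6746 gene identifiers. Its introns matched 97.9% of 5301 introns given by the files, and 99.7% had GT and AG ends in its sequence.

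The 7 genes and the 4 lists were chosen with earlier results of these data known. The rule named the 7 genes, *loz1*, called list members or the 2 of smallest p, overlapping (at least 20% of the span) and nearest genes, and the 5 genes most like *gcd1*. The labels do not say whether libraries of the same number were handled together. The groups' differences between replicates were not correlated (r = -0.01 over 6315 genes, 2 pairs), which cannot show how the libraries were prepared. There were 13 alternatives. Of the 14 nearest and 8 overlapping genes only some are named, and a neighbouring gene is not reported here.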

Additional observations from a re-analysis of the deposited data

How the results depend on the processing

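Of 173 alternative values 133 were scored as the same. For a change this meant the same direction and side of the threshold, and for a count staying within 1.5 times. For the share of *gcd1* it meant a shift smaller than the larger SD of the groups. *gcd1* was called in 13 of 13 alternatives and *gnd1* in 8. The counts of 753 higher and 276 lower genes became 491 and 161 without a filter on mean FPKM, 424 higher with median-ratio rescaling (310 lower) and 410 higher with quantile normalization. The 2 genes of the 7 called higher became 1 without the filter, with rescaling and without the intensity trend, where *gnd1* changed by 2.22 (adjusted p = 0.108), 2.09 (0.0631) and 2.22 (0.0698) by limma, and the 9 called list genes became 5 with rescaling. With 1 library left out, the counts ran from 73 to 2115 genes higher and 40 to 880 lower, from 1 to 7 and 0 to 1 of the 7 genes, and from 1 to 21 and 0 to 4 of the list genes. The changes then ran from 5.57 to 7.76 for *gcd1*, 1.47 to 2.98 for *gnd1*, -0.02 to 0.87 for *idn1*, -0.31 to 0.87 for SPAC3C7.13c, 0.11 to 1.29 for *tal1*, 0.27 to 0.99 for *tkt1* and 0.23 to 0.53 for *zwf1*. The reversals of *idn1* (-0.02) and SPAC3C7.13c (-0.31) came without wild type 2. Without a library, the intact pair largely sets the spread.

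With the replicate block the counts were 538 higher and 224 lower genes, both genes of the 7 remained called (adjusted p = 0.00462 for *gcd1* and 0.0391 for *gnd1*, limma), and 6 list genes were. Whether a shared replicate number marks a shared preparation is not given in the labels. Depth is only an estimate, and the bounds cover counting error only.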
